A study of Mus musculus with 9 samples.

Results

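The phagocyte NADPH oxidase genes analysed here are Cybb, Cyba, Ncf1, Ncf4, Rac2 and Hvcn1. They were chosen by name and not by their values, though with earlier results of these data known. They were matched by gene symbol to the mouse Ensembl identifiers of the count files, which gave 6 of 55487 identifiers. RNA was sequenced from unstimulated RAW264.7 cells, a macrophage-like line from a mouse tumour induced by Abelson leukaemia virus. Wild-type macrophages were set beside 2 genotypes made from them with CRISPR-Cas9 at the endogenous locus of Cebpd, which encodes the transcription factor C/EBPδ. Knock-out (KO) macrophages carry an out-of-frame deletion, and ΔTAD macrophages carry an in-frame deletion of the transactivation domain, which leaves a protein with its DNA-binding part. Each genotype had 3 libraries. The edited cells come from clones. Stimulated RAW264.7 cells elsewhere in the study came from 2 individual clones of each genotype, wild-type included. No source states whether the sequenced libraries of a genotype are 1 clone each. A p-value therefore measures the spread between these libraries, and a difference between genotypes cannot be told apart from one between clones.

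The oxidase is the enzyme with which phagocytes make superoxide. Cybb (gp91phox, also NOX2) and Cyba (p22phox) form flavocytochrome b558 in the membrane, which carries electrons from NADPH in the cytosol to oxygen on the other side. On activation Ncf1 (p47phox), Ncf4 (p40phox) and a further cytosolic partner move from the cytosol to the membrane together with a Rac GTPase, and the proton channel Hvcn1 lets protons follow the electrons, which balances the charge. Human loss-of-function mutations in the subunit genes cause chronic granulomatous disease.

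The libraries held 16113306 to 20981829 counts on genes. Values below are CPM, counts scaled to a common library total after scaling of the libraries by TMM. Taken as the limit of detection, 3 counts are 0.143 to 0.186 CPM before TMM scaling, and 0.21 CPM after it in ΔTAD replicate 1. Differences are log2 fold changes (log2FC) ± SE from edgeR's quasi-likelihood model of all 9 libraries. The SE was derived from the test, as the size of the log2FC divided by the square root of its F statistic. A gene was called where its p, adjusted by Benjamini-Hochberg over 14312 tested genes, was under 0.01. All 6 oxidase genes passed the filter on low counts. ΔTAD replicate 1 stood apart. A single ribosomal RNA gene took 11.0% of its counts, against 0.303 to 1.16% in the other 8 libraries, and calls of the oxidase genes that are lost with another scaling or without a library are named beside the gene. Cebpd itself does not check the labels, since most of its transcript lies outside the deletion. Its mean was 6.51 CPM in wild-type, 5.44 CPM in KO and 5.44 CPM in ΔTAD macrophages, and it was not called in KO (log2FC −0.26, edgeR adjusted p = 0.085) or ΔTAD macrophages (−0.24, adjusted p = 0.0931). Of 9 macrophage markers 8 had more than 3 counts in every library, Mertk being the exception. Their summed level was 3380 to 3565 CPM in wild-type, 4467 to 4853 CPM in KO and 6916 to 7105 CPM in ΔTAD macrophages, and most of the rise was that of Lyz2, which encodes lysozyme M. Without Lyz2 the sum was 2281 to 2381 CPM in wild-type, 2460 to 2573 CPM in KO and 2800 to 2861 CPM in ΔTAD macrophages, while the means of Fcgr1 and Itgam were lower in both edited genotypes than in wild-type. The part of these differences in the results was not tested. In bulk RNA fewer cells of a kind and less RNA per cell cannot be told apart. Of 8 neutrophil markers only S100a8 had more than 3 counts in every library, and their sum was at most 1.53 CPM.

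The oxidase genes lie on 4 chromosomes of GRCm38. Cybb (ENSMUSG00000015340) lies at chrX:9435252-9487771 and Cyba (ENSMUSG00000006519) at chr8:122424776-122432930, both on the minus strand. Ncf1 (ENSMUSG00000015950) lies at chr5:134220053-134229625 on the minus strand, and Hvcn1 (ENSMUSG00000064267) at chr5:122206804-122242297 on the plus strand. Ncf4 (ENSMUSG00000071715) lies at chr15:78244801-78262580 on the plus strand, and Rac2 (ENSMUSG00000033220) near it at chr15:78559167-78572783 on the minus strand.

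RefSeq promoters were available for Cybb, Cyba and Ncf1. The 250 bases before the start site are shown because C/EBP proteins and NF-Y are factors that the study ties to CCAAT-containing sites. They are written 5′ to 3′ on the strand of the gene in GRCm38.p6, with capitals for a match on either strand to CCAAT, to TTNNGNAA, a loose C/EBP half-site pair, or to GAGGAA, a core bound by the PU.1 family.
Cybb: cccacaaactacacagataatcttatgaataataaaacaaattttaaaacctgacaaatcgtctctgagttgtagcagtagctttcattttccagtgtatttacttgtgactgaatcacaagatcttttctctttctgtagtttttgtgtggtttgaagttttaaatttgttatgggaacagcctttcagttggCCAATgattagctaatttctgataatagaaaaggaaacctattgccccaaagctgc
Cyba: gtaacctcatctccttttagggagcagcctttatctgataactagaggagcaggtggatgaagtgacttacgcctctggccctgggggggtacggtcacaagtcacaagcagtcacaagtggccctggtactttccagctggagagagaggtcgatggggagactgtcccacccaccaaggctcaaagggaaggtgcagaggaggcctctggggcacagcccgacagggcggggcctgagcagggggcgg
Ncf1: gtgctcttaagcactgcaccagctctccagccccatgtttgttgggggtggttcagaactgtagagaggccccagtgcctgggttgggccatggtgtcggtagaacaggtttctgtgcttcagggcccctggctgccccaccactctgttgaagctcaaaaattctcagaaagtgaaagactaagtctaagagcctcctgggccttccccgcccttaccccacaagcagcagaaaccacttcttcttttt
They cover chrX:9469325-9469574, chr8:122432941-122433190 and chr5:134229626-134229875. The start site that RefSeq gives for Cybb lies inside the span of the GENCODE gene. The Cybb promoter holds 1 match, a CCAAT from 56 to 52 bases before the start, and the others hold none. Of 27018 promoters of this length 34.5% hold CCAAT, 36.9% TTNNGNAA and 23.1% GAGGAA. A match is a run of letters and not a measured binding site, and its absence says only that the letters are not in this window.

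Cybb and Cyba, the membrane subunits, were both higher in both edited genotypes, and higher in ΔTAD than in KO macrophages. Cybb measured 297, 307 and 293 CPM in wild-type, 332, 338 and 352 CPM in KO, and 517, 516 and 491 CPM in ΔTAD macrophages. The 3 groups did not overlap. Cybb rose by a log2FC of 0.19 ± 0.0361 in KO (1.14-fold, edgeR adjusted p = 8.42e-05) and of 0.77 ± 0.0361 in ΔTAD macrophages (1.70-fold, adjusted p = 3.32e-15). With scaling by library size alone the KO difference was 0.17 and was no longer called (edgeR adjusted p = 0.0224).

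Cyba, whose product stabilises that of Cybb and offers the docking site of p47phox, measured 145, 135 and 139 CPM in wild-type, 186, 186 and 188 CPM in KO, and 225, 236 and 241 CPM in ΔTAD macrophages. Again no library of a group reached the range of another. The rise was 0.42 ± 0.0377 in KO (1.34-fold, edgeR adjusted p = 8.57e-10) and 0.75 ± 0.0375 in ΔTAD macrophages (1.68-fold, adjusted p = 1.22e-14). In ΔTAD macrophages the genes of the flavocytochrome pair thus stood at nearly the same fold over wild-type, while in KO macrophages the fold of Cyba was the larger. The gene Gm20388 overlaps Cyba on the opposite strand and had no count in any library.

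**Figure D1:**
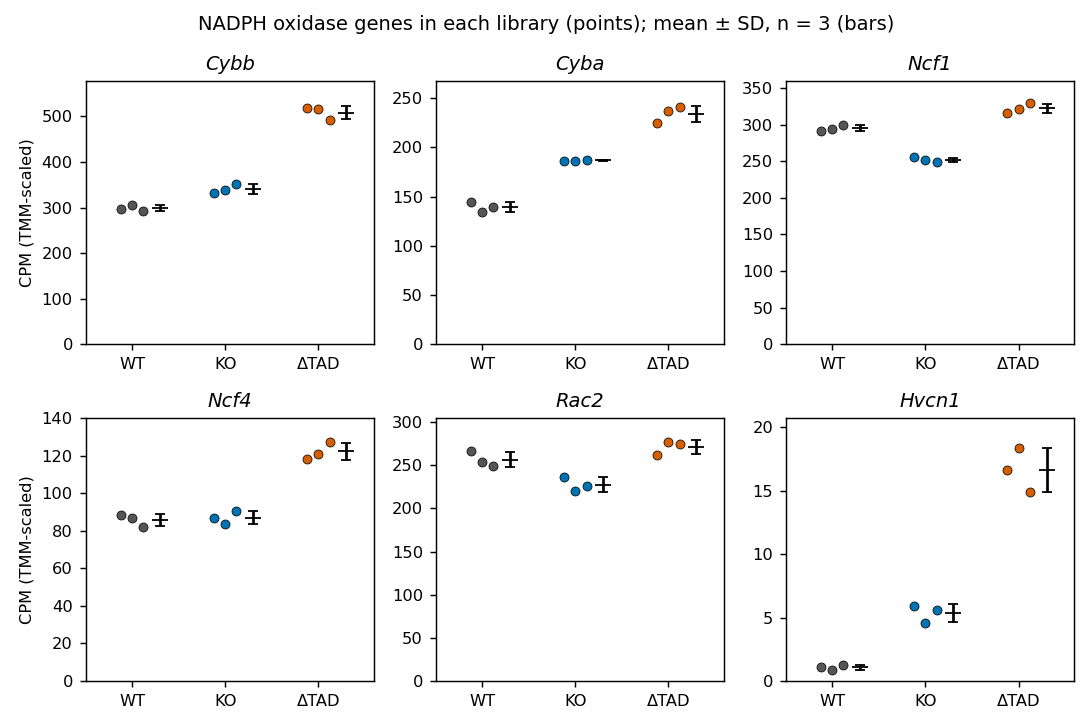
Level of each oxidase gene in CPM (y axis, linear from 0, its own scale in each panel) in the 3 wild-type (WT), 3 KO (KO) and 3 ΔTAD libraries. Points are libraries and the marks beside them mean ± SD (n = 3). Groups overlap only for Ncf4 between WT and KO and for Rac2 between WT and ΔTAD. Overlap was not counted over all tested genes.

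Ncf1, the organiser that bridges the cytosolic complex to p22phox, went in opposite directions in the edited genotypes. It measured 291, 295 and 299.98 CPM in wild-type, 255, 252 and 249.5 CPM in KO, and 316, 322 and 329 CPM in ΔTAD macrophages, without overlap between groups. Ncf1 fell by 0.23 on the log2 scale in KO macrophages (SE 0.0344, 0.855-fold, edgeR adjusted p = 4.38e-06). It rose by 0.13 ± 0.0343 in ΔTAD macrophages (1.09-fold, adjusted p = 0.00271). This small rise was not called with scaling by library size alone (log2FC 0.04, edgeR adjusted p = 0.651), without wild-type replicate 1 (0.12, adjusted p = 0.0106) or without ΔTAD replicate 3 (0.11, adjusted p = 0.0147). Gtf2ird2 overlaps Ncf1 on the opposite strand. It had 180 to 203 counts in wild-type, 207 to 284 in KO and 189 to 323 in ΔTAD macrophages, and rose by 0.42 (edgeR adjusted p = 0.000616) and 0.45 (adjusted p = 0.000206). The strand setting of the counting is not given in the sources used here, so reads of the overlap cannot be assigned.

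Ncf4, whose product binds phosphatidylinositol 3-phosphate on phagosomes, was higher in ΔTAD macrophages alone. It measured 88.4, 86.9 and 82.1 CPM in wild-type, 87.0, 83.6 and 90.8 CPM in KO, and 119, 121 and 128 CPM in ΔTAD macrophages. The wild-type and KO libraries overlapped, and every ΔTAD library lay above both. The log2FC was 0.02 ± 0.0396 in KO (edgeR adjusted p = 0.689) and 0.51 ± 0.0382 in ΔTAD macrophages (1.43-fold, adjusted p = 2.3e-11). The KO value changed sign without wild-type replicate 3 or KO replicate 3, and was not called in either case.

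Rac2, the Rac GTPase of blood cells, was lower in KO macrophages. It measured 266, 254 and 249 CPM in wild-type, 237, 221 and 225 CPM in KO, and 262, 277 and 274 CPM in ΔTAD macrophages. All KO libraries lay below the others, whereas wild-type and ΔTAD libraries overlapped. Rac2 fell by 0.17 in KO macrophages (SE 0.0388, 0.887-fold, edgeR adjusted p = 0.000522), a call that was lost with scaling by library size alone (log2FC −0.19, edgeR adjusted p = 0.0124). Its log2FC in ΔTAD macrophages was 0.08 ± 0.0386 (edgeR adjusted p = 0.0768), and −0.01 with scaling by library size alone (adjusted p = 0.941). Rac1, its broadly expressed paralog, measured 192 to 202 CPM in wild-type, 195 to 203 CPM in KO and 216 to 221 CPM in ΔTAD macrophages. Rac1 was not called in KO (log2FC 0.01, edgeR adjusted p = 0.897) and rose by 0.15 in ΔTAD macrophages (adjusted p = 0.000945), a call that was lost with scaling by library size alone (0.06, adjusted p = 0.47). Counted per kilobase of exon, Rac2 held 65.3% ± 1.04 of the sum of both in wild-type, 62.4% ± 0.958 in KO and 64.3% ± 0.620 in ΔTAD macrophages (SD, n = 3).

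Hvcn1, the voltage-gated proton channel, had by far the widest range of the oxidase genes and the lowest level. Wild-type libraries held 22, 15 and 21 counts, KO libraries 112, 76 and 99, and ΔTAD libraries 238, 382 and 313. These counts correspond to 1.10, 0.868 and 1.27 CPM, to 5.91, 4.59 and 5.61 CPM, and to 16.6, 18.3 and 14.9 CPM. Every library was over the limit of 3 counts, and the groups were far apart. The rise was 2.32 ± 0.195 in KO (4.98-fold, edgeR adjusted p = 2.53e-10) and 3.94 ± 0.155 in ΔTAD macrophages (15.3-fold, adjusted p = 9.81e-17). Tctn1, which overlaps Hvcn1 on the opposite strand, was not called (log2FC 0.08, edgeR adjusted p = 0.606, and −0.29, adjusted p = 0.0419).

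Counted over the oxidase genes, 5 of 6 were called in KO against wild-type macrophages, 3 higher and 2 lower, where 45.2% of all tested genes were called (22.8% higher, 22.4% lower). In ΔTAD against wild-type macrophages 5 of 6 were called, all higher, with 49.7% of all tested genes called and 26.3% higher. Since so many genes were called, the sizes say more than the counts. The median log2FC of the 6 genes was 0.11 in KO and 0.63 in ΔTAD macrophages, beside −0.00105 and −0.00332 over all tested genes. The median size of the change without its sign was 0.21 in KO macrophages, beside 0.24 over all tested genes, and 0.63 in ΔTAD macrophages, beside 0.27. The 6 genes were unequal in KO macrophages, where the change of Hvcn1 was larger than that of 97.6% of all tested genes and the change of Ncf4 larger than that of 5.22%.

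The direct comparison of the edited genotypes asks whether deleting the transactivation domain differs from loss of the protein. All 6 oxidase genes were called lower in KO than in ΔTAD macrophages, where 33.0% of all tested genes were called and 19.1% lower. Hvcn1 had the widest difference, a log2FC of −1.62 ± 0.111 (0.325-fold, edgeR adjusted p = 2.15e-11), followed by Cybb with −0.58 ± 0.0360 (0.670-fold, adjusted p = 3.81e-12) and Ncf4 with −0.49 ± 0.0382 (0.711-fold, adjusted p = 2.31e-10). The differences of Ncf1 (−0.35 ± 0.0344, edgeR adjusted p = 1.27e-08) and Cyba (−0.33 ± 0.0370, adjusted p = 1.47e-07) were smaller. That of Rac2 was −0.25 ± 0.0387 (edgeR adjusted p = 1.14e-05), and −0.18 without a call with scaling by library size alone (adjusted p = 0.0242). No KO library overlapped a ΔTAD library in any of the 6 genes. The share of all tested genes without such overlap was not counted, so nothing is read from this. The median log2FC of the 6 genes was −0.42, beside −0.0283 over all tested genes. The 3 comparisons share libraries and are not independent of each other. With scaling by library size alone the share of higher calls over all genes moved from 52.9% to 39.6% in ΔTAD against wild-type macrophages. In KO against ΔTAD macrophages it moved from 42.1% to 69.0%. Without ΔTAD replicate 1, and with TMM scaling, these shares were 48.5% and 50.2%.

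**Figure D2:**
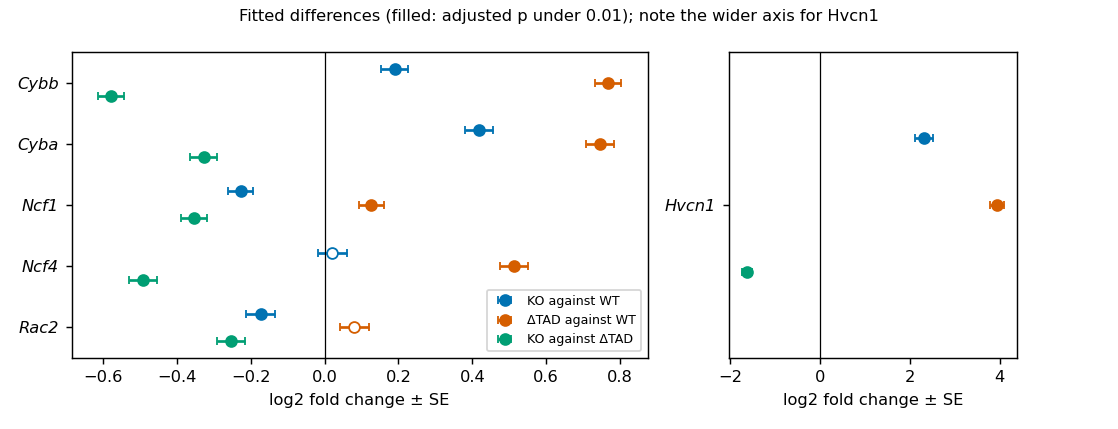
Fitted log2 fold change ± SE (x axis) of each oxidase gene for KO against WT, ΔTAD against WT and KO against ΔTAD, with Hvcn1 on a wider axis. Filled points have an adjusted p under 0.01, and only Ncf4 (KO against WT) and Rac2 (ΔTAD against WT) are open. All 6 points of KO against ΔTAD lie below 0.

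Levels of different genes were compared as CPM per kilobase of annotated exon. In wild-type macrophages Cyba led with 134 ± 4.90, followed by Rac2 with 82.7 ± 2.79 and Ncf1 with 80.6 ± 1.24, which differed by less than their spread, then Cybb with 51.4 ± 1.22, Ncf4 with 42.5 ± 1.64 and Hvcn1 with 0.303 ± 0.0568 (SD, n = 3). Knock-out macrophages kept this order, with Cyba at 179.6 ± 0.855, Rac2 at 73.3 ± 2.65, Ncf1 at 68.9 ± 0.772, Cybb at 58.7 ± 1.76, Ncf4 at 43.1 ± 1.79 and Hvcn1 at 1.51 ± 0.193. In ΔTAD macrophages Cyba stood at 225 ± 7.86, and Ncf1 at 88.0 ± 1.82, Cybb at 87.5 ± 2.57 and Rac2 at 87.4 ± 2.68 differed by less than their spread. Ncf4 followed at 60.6 ± 2.34 and Hvcn1 at 4.67 ± 0.484. Among 14294 tested genes with an exon length, the level of Cyba lay above 98.2% of genes in wild-type and 99.1% in ΔTAD macrophages. Hvcn1 moved from above 5.89% of genes in wild-type to above 24.4% in KO and 44.4% in ΔTAD macrophages. Cybb, Ncf1, Ncf4 and Rac2 stayed above 91.6% of genes or more in all 3 genotypes.

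The proportions between subunits shifted with genotype. The ratio of Cybb to Ncf1 per kilobase was 0.638 ± 0.0209 in wild-type, 0.852 ± 0.0348 in KO and 0.996 ± 0.0482 in ΔTAD macrophages (SD, n = 3), with no overlap between groups. The ratio of Ncf1 to Ncf4 was 1.90 ± 0.104, 1.60 ± 0.0753 and 1.45 ± 0.0272 in the same order, again without overlap. The ratio of Cybb to Cyba was 0.383 ± 0.0214 in wild-type and 0.389 ± 0.0233 in ΔTAD macrophages, whose libraries overlapped, and 0.327 ± 0.00856 in KO macrophages, whose libraries lay below both. These ratios were not tested, and they describe RNA, not the assembled enzyme.

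Of 11 other genes of the NOX and DUOX enzymes and their partners, 4 were tested, namely Rac1, Noxo1, Nox1 and Rac3. The other 7, Duox1, Duox2, Duoxa1, Duoxa2, Nox3, Nox4 and Noxa1, had at most 4 counts in any library. In KO macrophages, where 45.2% of all tested genes were called, 1 of the 4 was called, Noxo1, the organiser of the NOX1 enzyme. It held 16, 15 and 29 counts in wild-type, 41, 38 and 36 in KO, and 28, 33 and 48 in ΔTAD macrophages. Noxo1 rose by 0.95 ± 0.264 in KO macrophages (edgeR adjusted p = 0.00366), and its log2FC of 0.79 in ΔTAD macrophages was not called (adjusted p = 0.0132). Its call in KO macrophages was lost without wild-type replicate 1 (0.73, edgeR adjusted p = 0.034), wild-type replicate 2 (0.81, adjusted p = 0.0252), KO replicate 1 (0.96, adjusted p = 0.0112) or KO replicate 2 (0.92, adjusted p = 0.013). Nox1 had 3 to 23 counts and was not called in either genotype (log2FC 0.94, edgeR adjusted p = 0.0907, and 0.75, adjusted p = 0.175), and Rac3 likewise (−0.07, adjusted p = 0.839, and −0.55, adjusted p = 0.0719). In ΔTAD macrophages, where 49.7% of all tested genes were called, only Rac1 of these 4 was called.

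Around the enzyme, 75 genes in 6 lists were examined, including those 11, and 63 were tested. In KO macrophages 27 were higher and 12 lower, and in ΔTAD macrophages 36 were higher and 12 lower. Of all tested genes 22.8% were higher and 22.4% lower in KO, and 26.3% higher and 23.4% lower in ΔTAD macrophages. The median log2FC of the 63 genes was 0.12 and 0.23. In KO against ΔTAD macrophages 9 were higher and 28 lower, with a median of −0.13, and of all tested genes 13.9% were higher and 19.1% lower. The counts of each list below stand beside these shares, to which several of them are close, and nothing is read from a count alone.

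Genes of maturation and control were called 4 higher and 3 lower of 12 in KO (45.2% of all tested genes called), and 7 higher and 2 lower in ΔTAD macrophages (49.7% called). Their median log2FC was 0.05 and 0.13. Prdx6, a peroxiredoxin with phospholipase activity, fell from 365 CPM in wild-type to 213 CPM in KO (log2FC −0.78, edgeR adjusted p = 1.45e-15) and 181 CPM in ΔTAD macrophages (−1.01, adjusted p = 8.15e-18). Coro1a, an actin-binding protein, fell by 0.48 in KO (edgeR adjusted p = 4.58e-11) and by 0.12 in ΔTAD macrophages (adjusted p = 0.00778), where the call was lost under 8 alternatives, among them without wild-type replicate 1 (log2FC −0.09, adjusted p = 0.0541). Rubcn, which acts in LC3-associated phagocytosis, rose by 0.24 (edgeR adjusted p = 0.00299) and by 0.43 (adjusted p = 3.09e-06). The KO call of Rubcn was lost with scaling by library size alone (0.23, edgeR adjusted p = 0.0133), without wild-type replicate 2 (0.22, adjusted p = 0.0174) and without KO replicate 1 (0.18, adjusted p = 0.0341). Cybc1, the chaperone of the flavocytochrome, was named after its values were seen. It was not called in KO (log2FC −0.09, edgeR adjusted p = 0.116) and rose by 0.22 in ΔTAD macrophages (adjusted p = 0.000191), a call that was lost with scaling by library size alone (0.14, adjusted p = 0.0955).

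Of 21 tested genes of activating signals, 10 were higher and 6 lower in KO, and 14 higher and 5 lower in ΔTAD macrophages, again beside 45.2% and 49.7% of all tested genes called. The median log2FC of the list was 0.15 and 0.32. Pik3r5, a regulatory subunit of PI3Kγ, rose from 142 CPM to 208 CPM (log2FC 0.55, edgeR adjusted p = 1.25e-11) and 267 CPM (0.91, adjusted p = 5.32e-16). Pla2g4a, which releases arachidonic acid, fell by 0.77 in KO (edgeR adjusted p = 2.51e-15) and by 0.90 in ΔTAD macrophages (adjusted p = 1.13e-16). The kinase gene Akt1 fell by 0.72 (edgeR adjusted p = 8.96e-15) and by 0.45 (adjusted p = 5.87e-11). Akt1 lies on chromosome 12, where the median log2FC of 541 tested genes was −0.52 in KO and −0.54 in ΔTAD macrophages.

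Of 9 tested transcription factors known to act on oxidase or myeloid genes, 6 were higher in KO and 7 in ΔTAD macrophages, and none was called lower in either, where 22.8% and 26.3% of all tested genes were higher. The median log2FC was 0.26 and 0.52. Cebpa, the C/EBP factor of early myeloid development, measured 3.04 CPM in wild-type, 15.9 CPM in KO and 12.4 CPM in ΔTAD macrophages (log2FC 2.40, edgeR adjusted p = 1.25e-13, and 2.05, adjusted p = 4.41e-12). Cebpe, the C/EBP factor of late granulocytes, measured 8.39, 8.74 and 18.4 CPM. Its log2FC was 0.05 in KO (edgeR adjusted p = 0.7) and 1.14 in ΔTAD macrophages (adjusted p = 5.97e-11). Irf1, an interferon-induced factor, rose by 0.86 (edgeR adjusted p = 1.79e-07) and 1.11 (adjusted p = 9.96e-10). Spi1, which encodes PU.1, was named after its values were seen. It measured 117, 143 and 203 CPM, with a log2FC of 0.29 in KO (edgeR adjusted p = 5.37e-07) and 0.79 in ΔTAD macrophages (adjusted p = 3.79e-15).

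The oxidase uses NADPH, and of 6 genes of its supply 1 was higher and 2 lower in KO, and 3 higher and 1 lower in ΔTAD macrophages. Of all tested genes 45.2% and 49.7% were called, and the median log2FC of the 6 genes was −0.01 and 0.12. Idh1, cytosolic isocitrate dehydrogenase, rose by 0.47 (edgeR adjusted p = 7.08e-11) and 0.76 (adjusted p = 4.68e-15). G6pdx, the entry enzyme of the pentose phosphate pathway, fell by 0.23 (edgeR adjusted p = 4.82e-06) and by 0.16 (adjusted p = 0.000403). Pgls, the next enzyme of that pathway, was not called in KO (log2FC 0.13, edgeR adjusted p = 0.09) and rose by 0.42 in ΔTAD macrophages (adjusted p = 1.26e-06).

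Of 11 tested genes that remove superoxide and peroxide, 5 were higher and 1 lower in KO, and 4 higher and 4 lower in ΔTAD macrophages, where 45.2% and 49.7% of all tested genes were called. The median log2FC was 0.12 and 0.05. Gpx1, a glutathione peroxidase, measured 328, 424 and 584 CPM (log2FC 0.37, edgeR adjusted p = 6.92e-09, and 0.83, adjusted p = 1.46e-15). Prdx2, a cytosolic peroxiredoxin, rose by 0.46 (edgeR adjusted p = 3.77e-09) and 0.75 (adjusted p = 2.42e-13). Sod2, the mitochondrial superoxide dismutase, rose by 0.45 (edgeR adjusted p = 2.95e-11) and 0.58 (adjusted p = 2.09e-13). Sod2 lies on chromosome 17, where the median log2FC of 746 tested genes was 0.48 and 0.50. No median was taken for chromosomes 7, 9, 11, 14 and 16, which hold other named genes, among them Cebpa, Gpx1, Pik3r5, Cebpe and Rubcn.

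**Figure D3:**
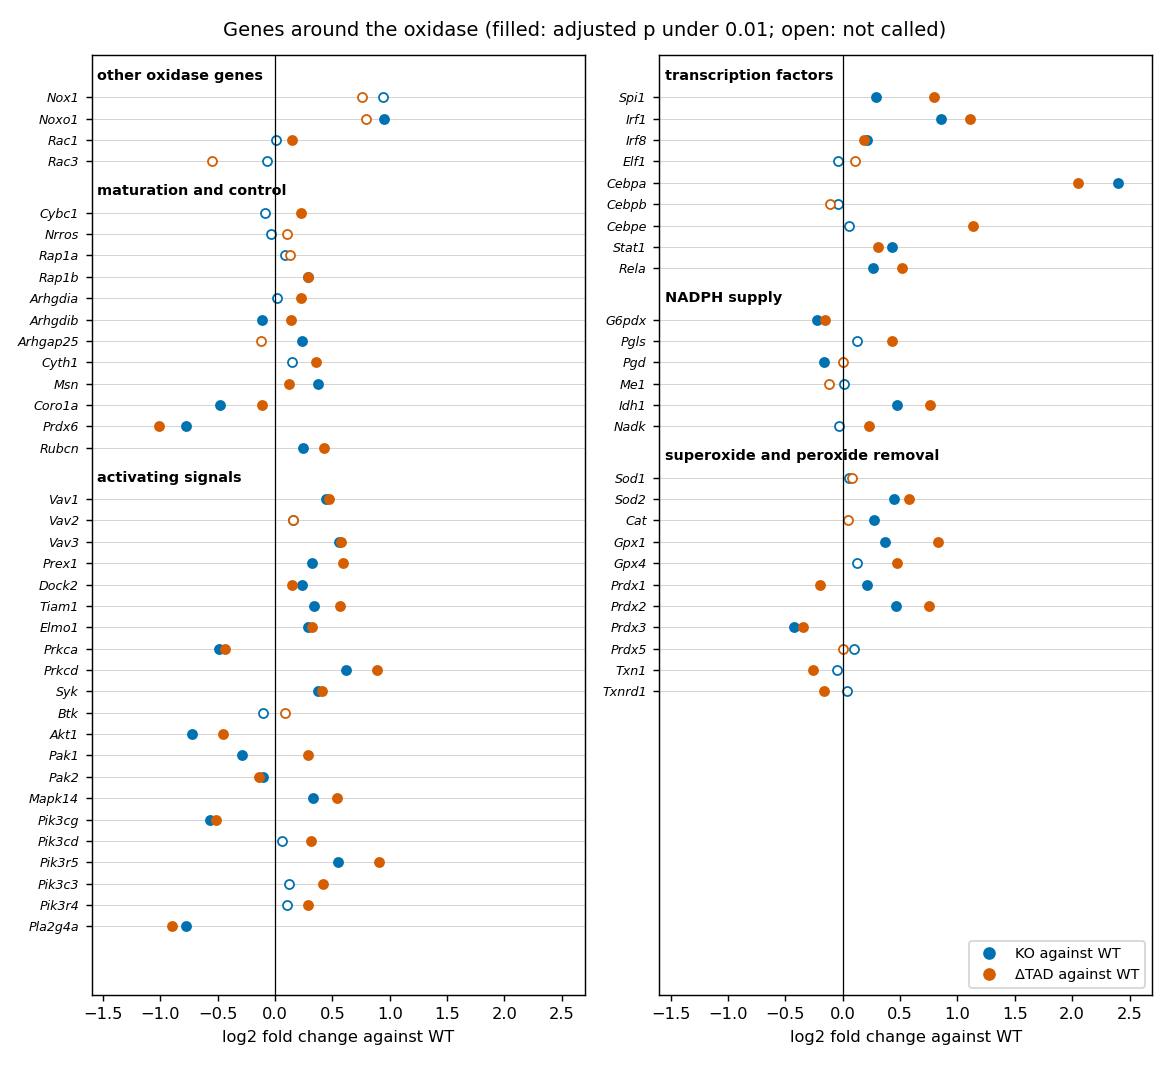
Fitted log2 fold change against WT (x axis) of the 63 tested genes of the 6 lists, with KO and ΔTAD as points of their own and filled where the adjusted p is under 0.01. Rac1 is filled in ΔTAD alone among the other oxidase genes, where Noxo1 is filled in KO alone, and Cebpa has the highest value in both genotypes.

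Genes next to the oxidase genes were examined because medians of chromosomes 12 and 17 were shifted. Within 2 Mb of each oxidase gene lay 38 to 96 other tested genes, and their median log2FC was between −0.10 and 0.02 in KO and between 0.00 and 0.03 in ΔTAD macrophages. Hvcn1 stood above all 92 genes around it in both comparisons. Cybb stood above 94.7% of 38 genes and Cyba above 92.9% of 56 genes in ΔTAD macrophages. Ncf4 stood above 85.4% of 96 genes there, whereas Ncf1 and Rac2 stood above 72.5% and 54.2% of theirs. Ncf4 and Rac2 lie in the window of each other.

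**Figure D4:**
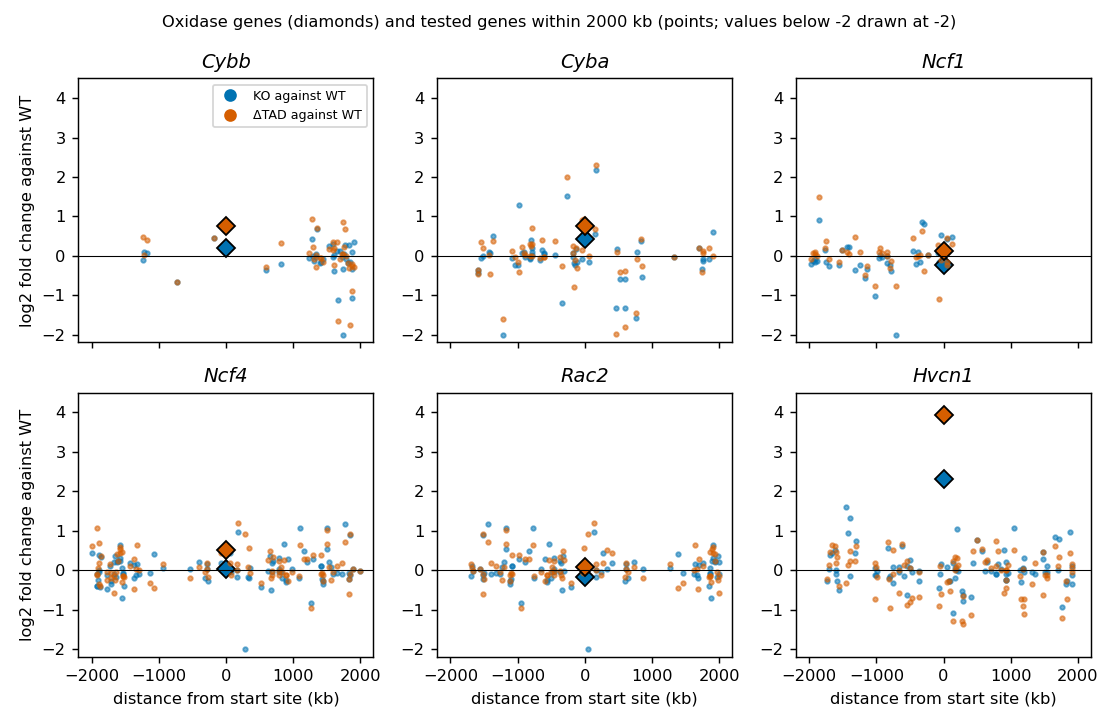
Fitted log2 fold change against WT (y axis, values under −2 drawn at −2) of tested genes by distance from the start site of each oxidase gene (x axis, kb). Points are other genes, diamonds the oxidase gene, and colours KO and ΔTAD. The diamonds of Hvcn1 lie above every point, and points around all 6 genes scatter on both sides of 0.

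For each oxidase gene the tested genes of most similar profile were found by the Euclidean distance of log2 CPM over the 9 libraries, each gene being centred on its mean. A distance is on the log2 scale and is best read beside the length of the gene's own centred profile. Crybg1 (distance 0.174) and Pld4 (0.178) came nearest to Cybb, whose own length was 0.983. Rftn1 (0.102) and Wdr91 (0.124) came nearest to Cyba, with a length of 0.920. Pld4 lies on chromosome 12 and Rftn1 on chromosome 17. Nearest to Ncf4 (0.722) were 5031439G07Rik (0.0860) and AB124611 (0.108). Slc37a4 (0.0878) and Apex1 (0.0901) came nearest to Ncf1, whose length was 0.441. Those nearest to Rac2 (0.338) were Gm5905 (0.0774) and Eif4b (0.0791). Nearest to Hvcn1, with a length of 4.73, were St6gal1, a sialyltransferase gene with means of 2.11, 6.93 and 22.9 CPM (distance 0.833), and 4930447F24Rik (1.05).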

How the data were processed

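Ribosomal RNA was depleted, single reads were trimmed with Trimmomatic and aligned to GRCm38 with Hisat2, and the authors deposited HTSeq counts per Ensembl gene, 1 list per library without normalization. The mode and strand setting of the counting are not given in the sources used here, so values of overlapping genes and paralogs are uncertain. Genotypes came from the labels and replicate numbers (1 to 3) from the donor labels. The titles disagree with the latter, giving the last library the number 5 for KO and ΔTAD and 4 for wild-type macrophages, so the replicate block and the correlations of same-numbered libraries rest on the donor labels alone. Tally lines were left out. On genes lay 46.7 to 53.2% of the records of a library. Symbols matched 55141 of 55487 identifiers, and 346 did not match. Positions and exon lengths are those of GENCODE M21.

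The tests were run with edgeR 4.0.16 (R 4.3.3). filterByExpr (minimum count 10, minimum total count 15) kept 14312 genes, TMM factors lay between 0.888 for ΔTAD replicate 1 and 1.03, and the quasi-likelihood model held 1 mean per genotype over the 9 libraries (common biological coefficient of variation 0.0468). The threshold of 0.01 on the adjusted p is that of the study. Its methods name no test, and it reports far fewer genes changed in both edited genotypes than were called here. Levels per kilobase are CPM divided by the union of annotated exons, which may be longer than the transcripts in use. Profiles used log2 CPM with a prior count of 2.

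The oxidase genes, the 6 related lists, the markers and the alternatives were chosen with earlier results of these data known. From each related list were named the 2 called genes of largest log2FC in size in each edited genotype, and of the other oxidase genes all that were tested. From each list of profiles 2 genes were named. Some genes are not reported here and were left out of the related lists and markers, but not out of the fit. Genes said to be named after their values were seen fall outside this rule. Marker sums for T cells lay between 4.42 and 7.29 CPM, for B cells at or under 0.299 CPM and for fibroblasts at or under 0.182 CPM. Of 6 T cell markers only Lck had more than 3 counts in every library, and it made up nearly all of their sum. Endothelial markers summed to 2.66 to 4.04 CPM in wild-type, 0.665 to 0.844 CPM in KO and 0.144 to 0.42 CPM in ΔTAD macrophages, and epithelial markers had no count. Tried as alternatives were limma-voom (limma 3.58.1), DESeq2 1.42.0, its size factors, library size alone, other filters, fits of the compared genotypes alone, a block for the replicate number, a threshold of 0.05, each library left out in turn and, for the neighbourhood, a window of 5 Mb. Scaling by library size alone without ΔTAD replicate 1 was added after the data had been seen. The scripts were tested on simulated counts.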

Additional observations from a re-analysis of the deposited data

Results flagged for a closer look

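KO and ΔTAD macrophages differed from each other by edgeR's test of the difference itself in all 6 oxidase genes, as given above. The log2FC of KO over ΔTAD was −1.62 for Hvcn1, −0.58 for Cybb, −0.49 for Ncf4, −0.35 for Ncf1, −0.33 for Cyba and −0.25 for Rac2. Ncf1 was the one with calls in opposite directions against wild-type. Among the related genes 3 also had calls in opposite directions. Arhgdib, an inhibitor that holds Rac in the cytosol, had a log2FC of −0.11 in KO (edgeR adjusted p = 0.0095) and 0.14 in ΔTAD macrophages (adjusted p = 0.00143), a difference of −0.25. Pak1, a kinase that Rac activates, had −0.29 and 0.29, a difference of −0.57 (edgeR adjusted p = 5.97e-09). Prdx1, a peroxiredoxin, went the other way, with 0.21 in KO and −0.20 in ΔTAD macrophages, a difference of 0.41 (edgeR adjusted p = 1.29e-09). The calls of Arhgdib are weak. That in KO was lost under 6 alternatives and that in ΔTAD macrophages under 4, with scaling by library size alone among both (log2FC −0.13, edgeR adjusted p = 0.11, and 0.05, adjusted p = 0.544), and its difference between the edited genotypes was then −0.18 (adjusted p = 0.0294). Single values within a group were not checked for outliers by a range test, which was not used on groups of 3.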

How the results depend on the processing

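Of 324 fold changes of the oxidase genes under the alternatives, 315 kept their direction and their side of the threshold, 6 lost their call and 3 changed sign. Those 3 were not called in any setting compared. Ncf4 in KO against wild-type macrophages ranged from −0.0167 to 0.0591 when libraries were left out in turn, and was below 0 without wild-type replicate 3 or KO replicate 3. Rac2 in ΔTAD against wild-type macrophages was −0.0069 with scaling by library size alone. That scaling took 4 of the 6 lost calls. It left 3 oxidase genes called in KO against wild-type macrophages (2 higher, 1 lower), with 5580 of all genes called instead of 6468. In KO against ΔTAD macrophages 22 related genes were called (8 higher, 14 lower, instead of 37 in all), with 3305 of all genes instead of 4730. The other 2 lost calls were of Ncf1, whose log2FC in ΔTAD macrophages ranged from 0.04 to 0.15 over all alternatives (edgeR adjusted p 0.000215 to 0.651). With the same scaling but without ΔTAD replicate 1, an alternative chosen after seeing the data, 5, 5 and 6 oxidase genes were called in the 3 comparisons, as reported. Of all genes 6779, 7031 and 4595 were then called. Leaving out libraries in turn left 5, 4 to 5 and 6 oxidase genes, and 5845 to 6733, 6454 to 7116 and 3737 to 4816 of all genes. With the replicate number as a block 5, 5 and 6 oxidase genes were called, and 6279, 6900 and 4465 of all genes instead of 6468, 7115 and 4730. Libraries of the same number did not deviate together (correlations from −0.0717 to 0.02 over 9 pairs), so the numbers were not taken as pairs. Of the levels under other scalings or without a library 8 moved by more than the spread between replicates, all with library size alone, and 82 did not. Leaving a library out of 3 cannot move a mean that far, so only the levels under other scalings are a check here. With a 5 Mb window the medians around the oxidase genes lay between −0.05 and −0.01 in KO and between −0.07 and 0.05 in ΔTAD against wild-type macrophages. Depth limits Hvcn1 in wild-type macrophages, with 15 to 22 counts, and Nox1, Noxo1 and Rac3.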

Other observations

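The macrophage markers did not move together. Most of the rise in the summed level was that of Lyz2, which encodes lysozyme M. Its means were 1167 CPM in wild-type, 2114 CPM in KO and 4192 CPM in ΔTAD macrophages. Adgre1, which encodes F4/80, measured 21.6, 58.8 and 70.9 CPM. Fcgr1, the high-affinity receptor for IgG, measured 39.5, 17.8 and 28.9 CPM. All edited libraries lay above all wild-type libraries in Adgre1 and Lyz2, and below all of them in Fcgr1. These 3 genes were named after their values were seen.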
